A study of Mus musculus with 11 samples.

Results

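The genes described are 10 genes of the heat shock response: *Hspa1a*, *Hspa1b*, *Hspa8*, *Hsp90aa1*, *Hsph1*, *Dnajb1*, *Hspb1*, *Hspe1*, *Hspd1* and *Hsf1*. They were chosen by name, as the transcription factor of the response and its best known chaperone genes, out of 55487 genes counted. The choice was made with earlier results of these data known, and the study had reported *Hspa1a* as higher in *Pde2A*-/- hearts. All 10 passed the filter of at least 10 counts over the 11 hearts, which 24177 genes passed. RNA was sequenced from the whole hearts of 5 *Pde2A*-/- and 6 *Pde2A*+/+ mouse embryos at E14.5, with 1 library for each heart. The embryos came from matings of heterozygous mice of the line B6;129P2-Pde2A tm1Dgen. The allele is inherited, so that every cell of a *Pde2A*-/- embryo carried it from the start and no change can be placed in the cells that normally use *Pde2A*. The labels name no treatment for either genotype. *Pde2a* itself had between 0 and 2 counts in every library of both genotypes, too few to test the labels of genotype by them. The locus *Gm45837*, looked at beside it, also had between 0 and 2. Why the counts were this low in *Pde2A*+/+ hearts was not tested, and no expression level of *Pde2a* is read from them. In whole hearts, fewer cells of a type and less RNA per cell cannot be told apart.

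The heat shock response is the main defence of cells against misfolded protein in the cytosol. HSF1, its transcription factor, is held inactive by chaperones and, once released, binds repeats of the letters GAA and TTC, called heat shock elements, in front of chaperone genes. HSP70 proteins grip exposed stretches of unfolded clients, J-domain proteins such as DNAJB1 bring the clients to them, and HSPH1, a member of the HSP110 family, helps them to exchange nucleotide. *Hspa8* encodes the constitutive HSP70, made at a high level in all cells, and *Hspa1a* and *Hspa1b* encode the stress-inducible form. HSP90, here the inducible form encoded by *Hsp90aa1*, finishes the folding of kinases and receptors, and HSPB1 (HSP25 in the mouse) holds unfolded clients in a soluble state and binds the cytoskeleton of muscle. *Hspd1* and *Hspe1* encode HSP60 and HSP10, the chaperonin of the mitochondrial matrix, and thus belong to the response by their induction and not to the cytosol by their place.

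The stretches upstream of *Hspa1a* and *Hspa1b* are shown because these genes moved together and the other members did not follow them. They are the 250 bases before the transcription start in RefSeq (build GRCm38.p6), at chr17:34972157-34972406 for *Hspa1a* and chr17:34959239-34959488 for *Hspa1b*, both on the minus strand and written 5′ to 3′. Capitals mark the heat shock motif GAANNTTC.
Hspa1a: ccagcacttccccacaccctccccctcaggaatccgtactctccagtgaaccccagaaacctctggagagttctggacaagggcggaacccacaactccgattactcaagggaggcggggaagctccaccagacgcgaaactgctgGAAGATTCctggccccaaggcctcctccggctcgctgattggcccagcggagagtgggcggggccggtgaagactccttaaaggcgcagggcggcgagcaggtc
Hspa1b: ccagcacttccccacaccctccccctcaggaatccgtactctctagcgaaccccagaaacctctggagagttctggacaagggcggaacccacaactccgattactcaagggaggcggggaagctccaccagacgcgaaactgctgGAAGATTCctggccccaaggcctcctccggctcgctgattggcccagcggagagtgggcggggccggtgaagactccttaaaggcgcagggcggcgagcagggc
Of the 250 bases, 247 are identical between the genes (98.8%), and both hold the motif as GAAGATTC with its first base at position −104 from the start. *Hspb1* and *Hsph1* are shown beside them because they hold the same kind of motif and were lower in *Pde2A*-/- hearts. Their stretches lie at chr5:135887669-135887918 on the plus strand and chr5:149636337-149636586 on the minus strand, and capitals mark GAANNTTC in *Hspb1* and TTCNNGAA in *Hsph1*.
Hspb1: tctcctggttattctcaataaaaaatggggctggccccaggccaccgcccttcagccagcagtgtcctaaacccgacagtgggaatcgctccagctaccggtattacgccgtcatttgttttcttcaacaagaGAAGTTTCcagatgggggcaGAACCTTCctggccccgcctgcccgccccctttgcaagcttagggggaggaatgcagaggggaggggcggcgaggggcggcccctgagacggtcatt
Hsph1: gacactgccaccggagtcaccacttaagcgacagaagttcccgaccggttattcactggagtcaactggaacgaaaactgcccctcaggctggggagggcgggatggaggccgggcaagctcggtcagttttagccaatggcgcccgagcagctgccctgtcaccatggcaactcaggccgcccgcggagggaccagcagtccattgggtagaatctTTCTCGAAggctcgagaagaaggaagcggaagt
In *Hspb1* the motif stands at −117 as GAAGTTTC and at −97 as GAACCTTC, and in *Hsph1* it stands at −33 as TTCTCGAA. One of these 8-letter motifs, each of which reads the same on both strands, was found upstream of 5 of the 7 members that the RefSeq table holds and of 13% of all 27025 promoters. *Hspe1* alone among these 7 held the longer form with a 3rd unit (GAANNTTC followed, after any pair of bases, by GAA, or the reverse complement), which 0.403% of all promoters held. *Dnajb1* and *Hspd1* held none of these letters in their windows, and *Hspa8*, *Hsp90aa1* and *Hsf1* are not in the table used here. Each window was taken at the most upstream start of its gene. *Hspd1* and *Hspe1* start next to each other on opposite strands. The *Hspe1* window (chr1:55087898-55088147) lies within the annotated *Hspd1* gene, and the *Hspd1* window (chr1:55088244-55088493) does not reach it. The result for *Hspd1* therefore does not mean that it lacks a heat shock element nearby.

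Sequence shared between genes limits what was counted, since a read that fits several places is dropped from the deposited counts. *Hspa1a* (ENSMUSG00000091971, chromosome 17, 34969190 to 34972156, minus strand) and *Hspa1b* (ENSMUSG00000090877, 34956436 to 34959238, same strand) are genes of 1 exon each. In the annotated transcripts, 61.7% of the 75-base windows of *Hspa1a* and 55.84% of those of *Hspa1b* occur also in another gene. In their coding sequences the share was 81% and 72.3%, and after the stop codon it was 1.9% and 0%. The reads counted for the pair were therefore those that tell the copies apart, in large part at the 3′ end, and each level is a lower bound for its gene. *Hspa8* (33.05% of windows), *Hsp90aa1* (42.77%), *Hspb1* (46.41%), *Hspd1* (30.99%) and *Hspe1* (14.57%) share sequence with other loci, *Gm15459* most for *Hspa8* and *Hsp25-ps1* most for *Hspb1*. *Hsph1*, *Dnajb1* and *Hsf1* share no such window, so their counts are free of this limit. The primers that the study used for *Hspa1a* in RT-qPCR are shown because they read the same stretch in both genes.
forward: acaagtcggagaacgtgcagga
reverse: gttgtccgagtaggtggtgaag
Both primers matched the transcripts of 2 genes, *Hspa1a* and *Hspa1b*, without a mismatch, so that a value from them takes in both genes of the pair. The reverse primer alone also matched *Hspa1l* in full, and matches with a mismatch were not searched.

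The libraries held between 35865537 and 42835382 reads counted on genes. Several hearts carried RNA of tissues next to the heart. Summed liver markers, in counts per 1000000 reads after TMM scaling (CPM), were 42.1 in *Pde2A*-/- D and 42.7, 37.5 and 111 in *Pde2A*+/+ 11, H and E, against 2.63 to 6.31 in the other hearts. Summed thymus markers were 58.7 CPM in *Pde2A*+/+ 7 and at most 0.224 in the others. Summed lung markers were 5.33 CPM in *Pde2A*+/+ 11 and at most 0.299 in the others. Summed skeletal muscle markers were 60.2 CPM in *Pde2A*-/- B and 45.9 in D, against 9.99 to 24.7 CPM in the other hearts. Hearts were left out by liver and thymus markers only, so that heart B stayed in every such fit. Cardiomyocyte markers lay between 35357 and 47061 CPM in all 11 hearts, which were labelled as embryonic heart. The comparison was also made without the 5 hearts with liver or thymus RNA, which leaves 4 *Pde2A*-/- and 2 *Pde2A*+/+ hearts (6 and 8). Those values stand beside the result of each member and of the network as a whole. A change there that is larger or smaller than in all hearts cannot be told apart from which hearts remain.

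In *Pde2A*-/- hearts, *Hspa1a* and *Hspa1b* were higher, *Hspa8*, *Hsph1* and *Hspb1* were lower, and the other 5 members did not pass the test. The threshold was an adjusted p under 0.05 in edgeR's quasi-likelihood test over all 24177 genes, by which 8.93% of all genes were higher and 5.67% were lower. The 2 members called higher and 3 called lower among 10 stand beside these shares. The estimates of 8 of the 10 lay below 0, with a median log2 fold change of −0.17 over the 10 members and −0.02 over all genes tested. At a fold change of at least 2, which 2.21% of all genes passed as higher and 0.372% as lower, *Hspa1a* and *Hspa1b* passed and none of the lower members did.

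**Figure D1:**
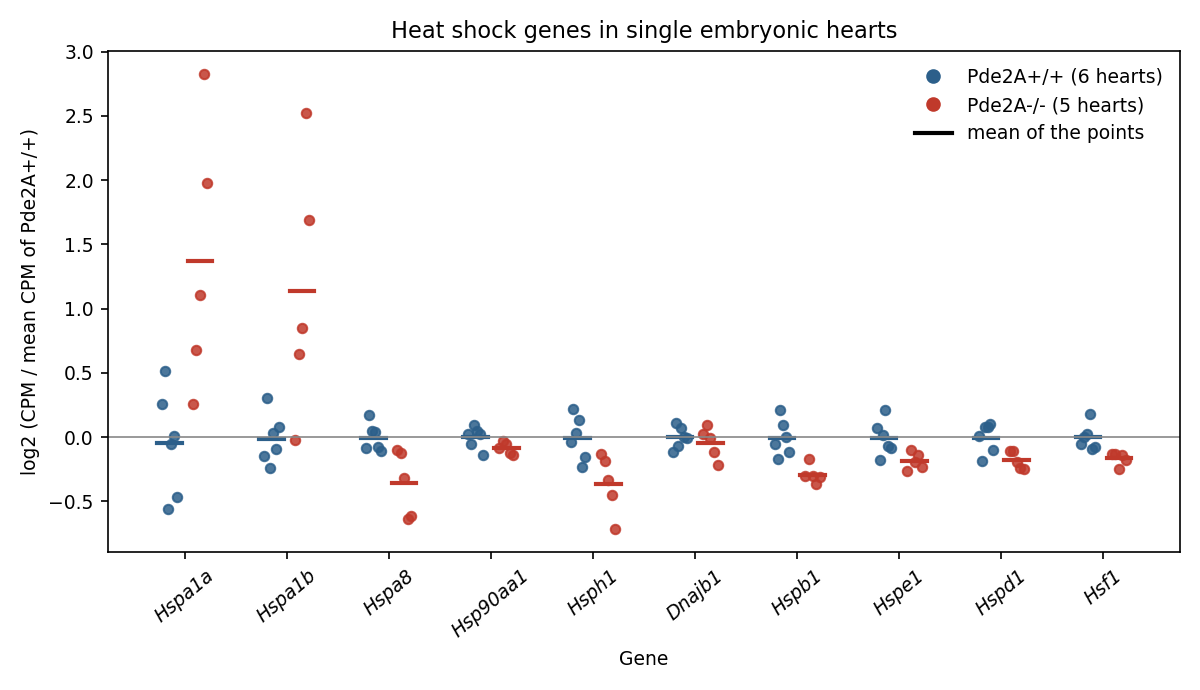
Level of each of the 10 heat shock genes in single hearts, as the log2 ratio of its CPM to the mean CPM of the 6 *Pde2A*+/+ hearts; each point is a heart and each bar the mean of the points of a genotype. *Hspa1a* and *Hspa1b* spread upward in *Pde2A*-/- hearts, from about the wild-type level to more than 2.5 on the log2 scale, while all *Pde2A*-/- points of the other 8 genes except 2 of *Dnajb1* lie below the mean of the *Pde2A*+/+ hearts.

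The members that rose were the inducible HSP70 genes. *Hspa1a* had 1.98 CPM in *Pde2A*-/- A, 2.64 in B, 3.56 in 14, 11.8 in D and 6.53 in 15. In *Pde2A*+/+ hearts it ranged from 1.12 to 2.36 CPM with a median of 1.63. Hearts B, 14, D and 15 lay above every *Pde2A*+/+ heart, and heart A lay among them. The means were 5.30 ± 4.01 CPM (SD, n = 5) and 1.65 ± 0.47 CPM (SD, n = 6), a log2 fold change of 1.67 ± 0.40 (SE, adjusted p = 0.0169, edgeR).

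*Hspa1b* repeated the order of the hearts, with 2.01 CPM in A, 3.21 in B, 3.68 in 14, 11.7 in D and 6.61 in 15. Its *Pde2A*+/+ values ran from 1.73 to 2.53 CPM around a median of 2.0. Again 4 of the 5 *Pde2A*-/- hearts lay above every *Pde2A*+/+ heart, and A did not. The log2 fold change was 1.41 ± 0.36 (SE, adjusted p = 0.0211, edgeR), from means of 5.45 ± 3.90 (SD, n = 5) and 2.05 ± 0.28 CPM (SD, n = 6). These were low counts, between 76 and 424 reads per *Pde2A*-/- heart and 41 and 87 per *Pde2A*+/+ heart for *Hspa1a*. With the reads of both genes summed into 1 gene the log2 fold change was 1.54 ± 0.37 (SE, adjusted p = 0.0169, edgeR). *Hspa1a* supplied between 45.2% and 50.1% of the reads of the pair in *Pde2A*-/- hearts and between 35.7% and 51.7% in *Pde2A*+/+ hearts.

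The pair varied widely among *Pde2A*-/- hearts. The SD was 75.8% of the mean for *Hspa1a* and 71.6% for *Hspa1b*, against 28.4% and 13.9% in *Pde2A*+/+ hearts. For the other 8 members it was 3.26% to 17.6% in *Pde2A*-/- hearts. Without heart D the log2 fold change of *Hspa1a* was 1.15 (adjusted p = 0.0463, edgeR) and that of *Hspa1b* 0.92 (adjusted p = 0.0551, edgeR), and without heart 15 *Hspa1b* had an adjusted p of 0.0541. Without the 5 hearts that held liver or thymus RNA, heart D among them, the values were 1.44 (adjusted p = 0.210, edgeR) and 1.03 (adjusted p = 0.285, edgeR).

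Constitutive *Hspa8* (ENSMUSG00000015656, chromosome 9, 40800984 to 40810087, plus strand) went the other way. It had 917 CPM in *Pde2A*-/- A, 901 in B, 789 in 14, 632 in D and 640 in 15, and between 910 and 1105 CPM with a median of 970 in *Pde2A*+/+ hearts. Only heart A lay within the *Pde2A*+/+ range, and D and 15 were well below all other hearts. The means were 776 ± 137 CPM (SD, n = 5) and 983 ± 74.9 CPM (SD, n = 6), a log2 fold change of −0.34 ± 0.10 (SE, adjusted p = 0.0390, edgeR). In these counts *Hspa8* lost 207 CPM on average while the inducible pair together gained 7.05 CPM. The exons of *Hspa8* overlap those of the small nucleolar RNAs *Snord14c*, *Snord14d* and *Snord14e* over 6.09% of their bases, and reads there are counted for neither.

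*Hsph1* (ENSMUSG00000029657, chromosome 5, 149614287 to 149636376, minus strand), the HSP110 partner of HSP70, followed *Hspa8*. Its values were 66.4 CPM in A, 64.1 in B, 57.9 in 14, 53.3 in D and 44.4 in 15, against 62.2 to 84.7 CPM with a median of 72.6 in *Pde2A*+/+ hearts. Hearts 14, D and 15 were below every *Pde2A*+/+ heart. The log2 fold change was −0.35 ± 0.10 (SE, adjusted p = 0.0408, edgeR), from means of 57.2 ± 8.82 (SD, n = 5) and 72.9 ± 8.5 CPM (SD, n = 6).

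Both calls stood close to the threshold. When each of the 11 hearts was left out in turn, *Hspa8* and *Hsph1* were each called in 4 of the 11 fits, with log2 fold changes from −0.40 to −0.27 for both. The calls were lost without *Pde2A*-/- 14, D or 15 and without *Pde2A*+/+ 11, 6 or 8, and further without *Pde2A*+/+ H for *Hspa8* and *Pde2A*+/+ 7 for *Hsph1*. Without the 5 hearts with liver or thymus RNA the values were −0.31 (adjusted p = 0.296, edgeR) and −0.39 (adjusted p = 0.244, edgeR).

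*Hspb1* (ENSMUSG00000004951, chromosome 5, 135887919 to 135889563, plus strand), the small heat shock protein, fell as well. It had 107 CPM in A, 117 in B, 107 in 14, 102 in D and 106 in 15, and 117 to 152 CPM with a median of 129 in *Pde2A*+/+ hearts. All *Pde2A*-/- hearts but B lay below every *Pde2A*+/+ heart, and B was level with the lowest of them. The log2 fold change was −0.29 ± 0.07 (SE, adjusted p = 0.0139, edgeR), from means of 108 ± 5.51 (SD, n = 5) and 132 ± 12.9 CPM (SD, n = 6). *Hspb1* was called in all 11 fits that left out a heart. Without the 5 hearts with liver or thymus RNA its log2 fold change was −0.41 (adjusted p = 0.0350, edgeR). The *Pde2A*+/+ hearts left in that fit, 6 and 8, had the highest *Hspb1* of all 11 hearts (152 and 141 CPM). The larger fall there can therefore not be told apart from which hearts remain.

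*Hsf1*, which encodes the transcription factor of the response, was the member in which the genotypes did not overlap. It had 33.2 CPM in A, 33.3 in B, 30.7 in 14, 33.1 in D and 32.3 in 15, and 34.2 to 41.3 CPM with a median of 35.8 in *Pde2A*+/+ hearts. All 5 *Pde2A*-/- hearts lay below all 6 *Pde2A*+/+ hearts, which 3.11% of all genes tested also showed. The log2 fold change of −0.16 ± 0.05 (SE) missed the threshold, with an adjusted p of 0.0589 in edgeR and 0.0215 in DESeq2. Without the 5 hearts with liver or thymus RNA it was −0.26 (adjusted p = 0.191, edgeR). The mRNA level does not report the activity of HSF1, which is set on the protein.

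The mitochondrial pair also missed the threshold. *Hspd1* had 516 ± 24.7 CPM in *Pde2A*-/- (SD, n = 5) and 584 ± 45.8 CPM in *Pde2A*+/+ hearts (SD, n = 6), a log2 fold change of −0.18 ± 0.06 (SE, adjusted p = 0.0586, edgeR). *Hspe1*, which starts next to *Hspd1* on the other strand, had 74.2 ± 3.41 and 84.3 ± 8.14 CPM (SD, n = 5 and 6), a log2 fold change of −0.18 ± 0.06 (SE, adjusted p = 0.0727, edgeR). In both genes 3 of the 5 *Pde2A*-/- hearts lay below every *Pde2A*+/+ heart and all 5 below the *Pde2A*+/+ mean. The adjusted p was 0.0174 for *Hspd1* and 0.0327 for *Hspe1* in DESeq2. Without the 5 hearts with liver or thymus RNA the log2 fold change was −0.23 (adjusted p = 0.180, edgeR) for *Hspd1* and −0.30 (adjusted p = 0.151, edgeR) for *Hspe1*.

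For *Dnajb1* and *Hsp90aa1* no difference was detected. *Dnajb1*, the J-domain partner that is induced with HSP70, had 53.6 ± 4.46 CPM in *Pde2A*-/- (SD, n = 5) and 55.1 ± 3.11 CPM in *Pde2A*+/+ hearts (SD, n = 6). Its log2 fold change was −0.04 ± 0.06 (SE, adjusted p = 0.720, edgeR), with a 95% interval from −0.16 to 0.08. *Hsp90aa1* had 374 ± 12.2 and 397 ± 22.2 CPM (SD, n = 5 and 6), a log2 fold change of −0.09 ± 0.05 (SE, adjusted p = 0.241, edgeR) with a 95% interval from −0.18 to 0.01. Both intervals leave out a change of the size fitted for *Hspa1a*. Without the 5 hearts with liver or thymus RNA the values were −0.01 (adjusted p = 0.959, edgeR) and −0.13 (adjusted p = 0.343, edgeR).

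**Figure D2:**
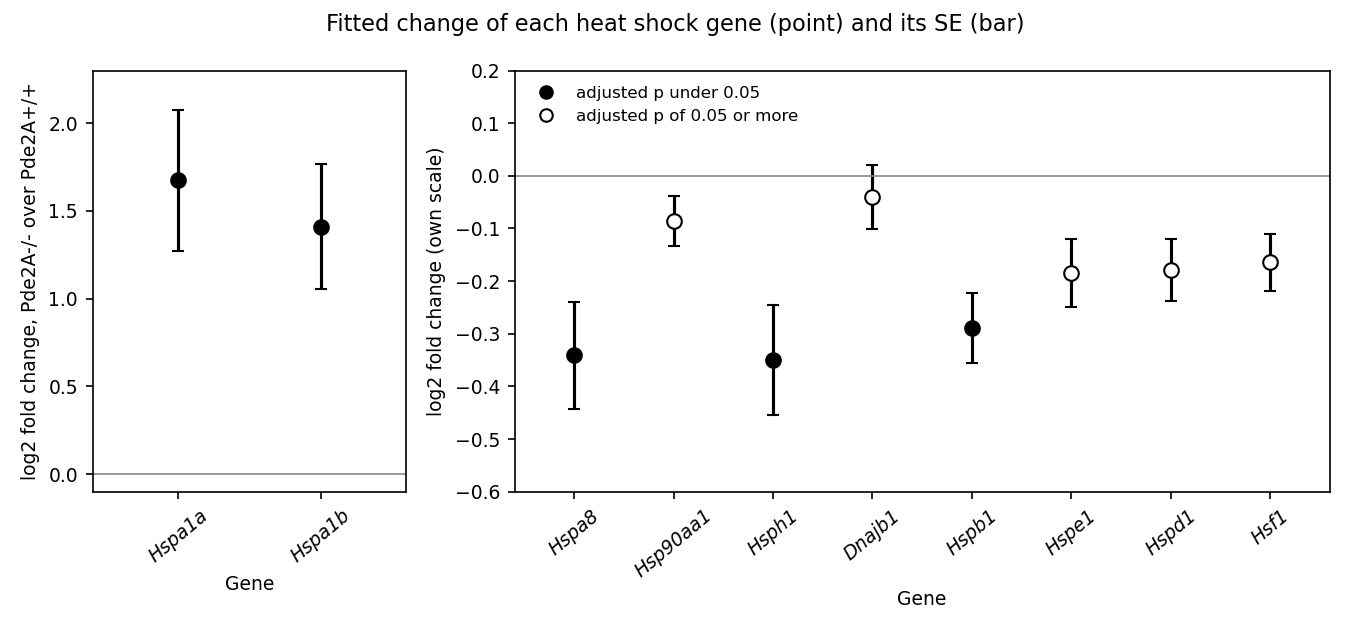
Fitted log2 fold change of *Pde2A*-/- over *Pde2A*+/+ hearts for each of the 10 genes, with its SE as a bar; filled points have an adjusted p under 0.05, and the panels have axes of their own. *Hspa1a* at 1.67 and *Hspa1b* at 1.41 stand alone above 0, *Hspa8*, *Hsph1* and *Hspb1* lie between −0.35 and −0.29, and the other 5 genes lie between −0.18 and −0.04.

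Per kilobase of exon, with the exons of all annotated transcripts of a gene merged, the members differed widely in level in *Pde2A*+/+ hearts. *Hspa8* had 229 CPM per kb and *Hspd1* 221, *Hspb1* had 128, *Hsp90aa1* 101 and *Hspe1* 57.2, and *Dnajb1* (17.2), *Hsph1* (10.04) and *Hsf1* (5.13) were lower. *Hspa1b* (0.730) and *Hspa1a* (0.558) closed the order. Shared sequence lowers the count at both ends of this order, since the share of coding windows found in another gene was 82% for *Hspa8*, 81.3% for *Hspb1*, 75% for *Hsp90aa1*, 53.7% for *Hspe1* and 45.9% for *Hspd1*, beside the 81% and 72.3% of the inducible pair. The order and the ratio to *Hspa8* are those of counted reads and were not corrected for it. The order depends also on the length used, 4301 bases for *Hspa8*, 2642 for *Hspd1*, 7266 for *Hsph1*, 7099 for *Hsf1* and 3204 for *Dnajb1*. The coding part of the longest coding transcript was 1941 bases for *Hspa8*, 1722 for *Hspd1*, 2577 for *Hsph1*, 1434 for *Hsf1* and 1023 for *Dnajb1*. Exons that the heart does not use would lower a value per kilobase. *Hspa8* and *Hspd1*, with an SD over hearts of 7.62% and 7.85% of the mean, and the 3 genes *Dnajb1*, *Hsph1* and *Hsf1* can therefore not be ranked among themselves. The ratio to *Hspa8* below carries the same limit. Set against *Hspa8* per kilobase, the counted *Hspa1a* and *Hspa1b* reads together came to 0.421% to 0.661% in *Pde2A*+/+ hearts. In *Pde2A*-/- hearts they came to 0.650% in A, 0.972% in B, 1.37% in 14, 5.55% in D and 3.06% in 15. All *Pde2A*-/- hearts except A were above every *Pde2A*+/+ heart, and in all 11 the constitutive gene stayed far above the inducible pair.

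**Figure D3:**
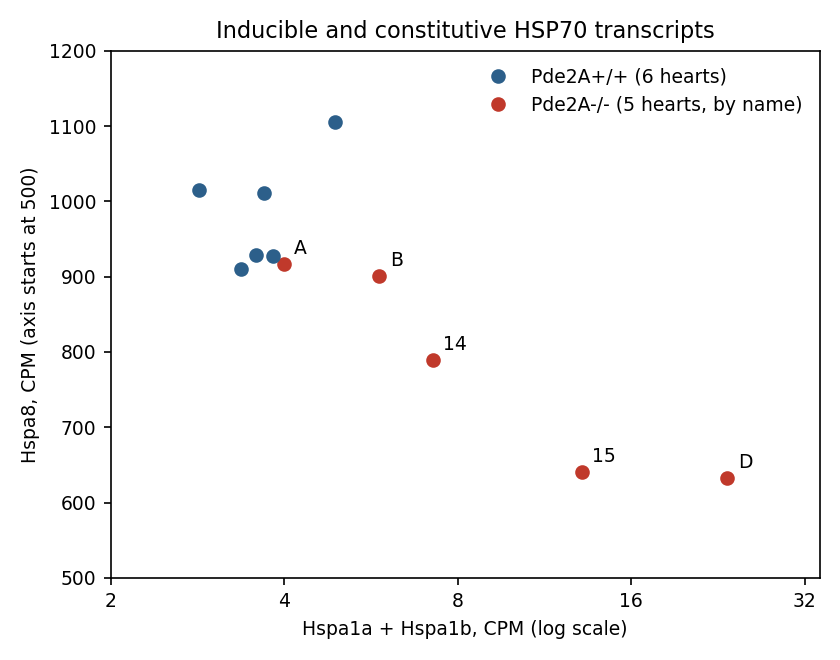
CPM of *Hspa1a* and *Hspa1b* summed (log axis) against CPM of *Hspa8* (axis from 500) in each of the 11 hearts; *Pde2A*-/- hearts carry their names. The 6 *Pde2A*+/+ hearts sit at 2.85 to 4.89 CPM of the pair and 910 to 1105 CPM of *Hspa8*, heart A sits with them, and D and 15 sit apart at 23.5 and 13.1 CPM of the pair and at 632 and 640 CPM of *Hspa8*.

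Hearts D and 15 held the extremes of the members in both directions. D had the highest values of *Hspa1a* and *Hspa1b* of all 11 hearts and 15 the next. Of the other 8 members, 6 had their lowest value in D or 15, and none had its highest there. Of all genes at or above 1 CPM on average, 34.5% had their lowest value in one of these hearts and 32.3% their highest, so that the hearts stood apart over many genes. The hearts were singled out by the values of the members, so that the counts of members restate that choice in part. The names of the hearts are letters or numbers, and the labels do not say what this means. Among hearts named by letters (3 against 2) the log2 ratio of mean CPM was 1.93 for *Hspa1a* and 1.47 for *Hspa1b*, and among those named by numbers (2 against 4) it was 1.51 and 1.33. For *Hspa8* it was −0.17 and −0.51, for *Hsph1* −0.06 and −0.60, for *Hspb1* −0.22 and −0.34 and for *Hsf1* −0.05 and −0.25, so that these genes had the same direction in both while *Hspa8*, *Hsph1* and *Hsf1* were nearer to 0 among the hearts named by letters. For *Dnajb1* it was 0.01 and −0.11. With the naming style as a covariate *Hsph1* was no longer called (adjusted p = 0.0625, edgeR).

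The wider network of the response was read from 60 further genes, in lists for the HSF family, HSP70 and HSP110, J-domain proteins, exchange factors, HSP90 and its co-chaperones, small heat shock proteins, the cytosolic chaperonin TRiC, mitochondrial chaperones and other heat-induced genes. In *Pde2A*-/- hearts 19 of the 60 were lower (31.7%) and 1 was higher, against 5.67% and 8.93% of all genes tested. Among the genes that averaged 1 CPM or more, 9.03% were lower and 13.7% higher. The median log2 fold change of the 60 was −0.12, and 45 estimates lay below 0. The falls were small, from −0.45 to −0.19 on the log2 scale. In 11 of the 60 every *Pde2A*-/- heart lay below every *Pde2A*+/+ heart (18.3%, against 3.11% of all genes tested). The count of 19 fell to 8 without *Pde2A*-/- 14, 7 without D, 11 without 15 and 11 without *Pde2A*+/+ 6, and to 1, *Hspb8*, without the 5 hearts with liver or thymus RNA. That last fit kept *Pde2A*+/+ 6 and 8, which each held the highest value of 20 of the 60 genes (33.3% each). Of all genes at or above 1 CPM on average, 12.5% had their highest value in 6 and 11.7% in 8.

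The small heat shock proteins were the list with the largest share of falls, 4 of the 6 besides *Hspb1*. They are made in striated muscle, where they guard filaments and their Z-discs. *Cryab*, which encodes αB-crystallin, had 256 ± 32.9 CPM in *Pde2A*-/- (SD, n = 5) and 325 ± 21.6 CPM in *Pde2A*+/+ hearts (SD, n = 6), a log2 fold change of −0.35 ± 0.08 (SE, adjusted p = 0.0122, edgeR). *Hspb7*, a cardiac small heat shock protein that binds filamin, had 720 ± 53.9 and 883 ± 95.7 CPM (SD, n = 5 and 6; log2 fold change −0.29, adjusted p = 0.0232, edgeR), with no overlap between the genotypes. *Hspb2* (−0.38, adjusted p = 0.0067) and *Hspb8* (−0.35, adjusted p = 0.00868), the partner of BAG3, also fell without overlap in the same fit. *Cryab*, *Hspb2* and *Hspb8* were called in all 11 fits that left out a heart, and *Hspb7* in 8, not without *Pde2A*-/- 14 or D or *Pde2A*+/+ 6. *Hspb3* (−0.47, adjusted p = 0.0538) and *Hspb6* (−0.28, adjusted p = 0.0892) did not pass. Heart B, which had the most RNA of skeletal muscle markers, had the highest *Hspb1* and *Cryab* of the *Pde2A*-/- hearts (117 and 309 CPM). The part of that RNA in these levels was not tested.

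Several HSP90 co-chaperones fell, and neither HSP90 gene passed the test in edgeR. Of the 10 genes of this list besides *Hsp90aa1*, 6 were lower and 0 higher in edgeR (1 higher at an unadjusted p under 0.05, and 1 in DESeq2, *Hsp90ab1* in both). The myosin chaperone *Unc45b* had 202 ± 20.9 CPM in *Pde2A*-/- (SD, n = 5) and 275 ± 29.4 CPM in *Pde2A*+/+ hearts (SD, n = 6), a log2 fold change of −0.45 ± 0.08 (SE, adjusted p = 0.00405, edgeR). *Fkbp4* (−0.29, adjusted p = 0.0119), *Chordc1* (−0.30, adjusted p = 0.0211) and *Stip1* (−0.21, adjusted p = 0.0394), which hands clients from HSP70 to HSP90, fell in the same fit. *Ahsa1*, the activator of the HSP90 ATPase, and *Ptges3*, its p23 co-chaperone, were the other genes called lower. *Hsp90ab1*, the constitutive HSP90 and the most abundant gene of the network, had 3065 ± 67.6 CPM in *Pde2A*-/- (SD, n = 5) and 2881 ± 87.9 CPM in *Pde2A*+/+ hearts (SD, n = 6). All 5 *Pde2A*-/- hearts lay above all 6 *Pde2A*+/+ hearts, as in 5.38% of all genes tested, but the log2 fold change of 0.09 ± 0.04 (SE) had an adjusted p of 0.147 in edgeR and 0.021 in DESeq2. Of the 6 called lower, *Unc45b* and *Fkbp4* were called in all 11 fits that left out a heart, *Chordc1* and *Ahsa1* in 9, *Ptges3* in 8 and *Stip1* in 5. *Chordc1*, *Ahsa1*, *Ptges3* and *Stip1* were each lost without *Pde2A*-/- 14 and without D, *Ptges3* and *Stip1* also without 15, and *Stip1* also without *Pde2A*+/+ 7, 6 or 8.

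Among the partners of HSP70, *Hspa4* (HSP110 family) had 339 CPM in *Pde2A*-/- A, 324 in B, 274 in 14, 261 in D and 239 in 15, against 329 to 374 CPM in *Pde2A*+/+ hearts. Only A lay in the *Pde2A*+/+ range, and D and 15 were lowest, as for *Hspa8*. Its log2 fold change was −0.29 ± 0.08 (SE, adjusted p = 0.0336, edgeR). The J-domain gene *Dnaja1* had 99.7 CPM in A, 88.7 in B, 72.9 in 14, 60.5 in D and 55.2 in 15, against 94.6 to 107 CPM in *Pde2A*+/+ hearts, a log2 fold change of −0.43 ± 0.13 (SE, adjusted p = 0.0401, edgeR). *Dnaja2* (−0.19, adjusted p = 0.0322) fell as well, so that 2 of the 8 J-domain genes besides *Dnajb1* were lower. *Hspbp1*, an exchange factor, was 1 of 6 of its list to fall (−0.27, adjusted p = 0.0303). *Bag3*, an HSF1 target that couples HSP70 to autophagy in muscle, was at 65.6 ± 3.50 and 66.6 ± 3.09 CPM (SD, n = 5 and 6; log2 fold change −0.02, adjusted p = 0.816, edgeR). *Hspa4l* (0.14, adjusted p = 0.106), the testis HSP70 *Hspa1l* (−0.41, adjusted p = 0.0953) and *Hsf2* (−0.12, adjusted p = 0.181) did not pass, and *Hsbp1*, whose product binds HSF1, fell (−0.21, adjusted p = 0.0378). These falls were lost in many of the 11 fits that left out a heart: *Dnaja1* was called in 2, *Hsbp1* in 3, *Hspa4* in 4, and *Dnaja2* and *Hspbp1* in 6. All 5 were lost without *Pde2A*-/- 14, D or 15 and without *Pde2A*+/+ 6 or 8.

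Of the 8 subunits of TRiC, which folds actin and tubulin, *Cct3* was lower (−0.26, adjusted p = 0.0192, edgeR) and the other 7 did not pass. Of the 7 mitochondrial genes besides *Hspd1* and *Hspe1*, 0 passed in edgeR (1 higher and 1 lower at an unadjusted p under 0.05, and the same counts in DESeq2), and *Hspa9*, the mitochondrial HSP70, was at −0.05 (adjusted p = 0.595). Of the 6 other heat-induced genes, *Serpinh1*, the collagen chaperone (−0.26, adjusted p = 0.0360), *Cacybp* (−0.35, adjusted p = 0.0154) and *Ier5*, an activator of HSF1 (−0.27, adjusted p = 0.0157), fell. *Cacybp* and *Ier5* were called in all 11 fits that left out a heart, *Cct3* in 10, not without *Pde2A*-/- D, and *Serpinh1* in 2, those without *Pde2A*+/+ 7 or H. *Sqstm1*, the autophagy receptor p62, was the 1 gene of the network called higher. It had 179 CPM in *Pde2A*-/- A, 199 in B, 235 in 14, 261 in D and 300.3 in 15, against 171 to 186 CPM in *Pde2A*+/+ hearts (log2 fold change 0.39 ± 0.11, SE, adjusted p = 0.0262, edgeR). It is also a target of NRF2, and it was not called without *Pde2A*-/- 14, D or 15, without *Pde2A*+/+ 6, or without the 5 hearts with liver or thymus RNA.

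**Figure D4:**
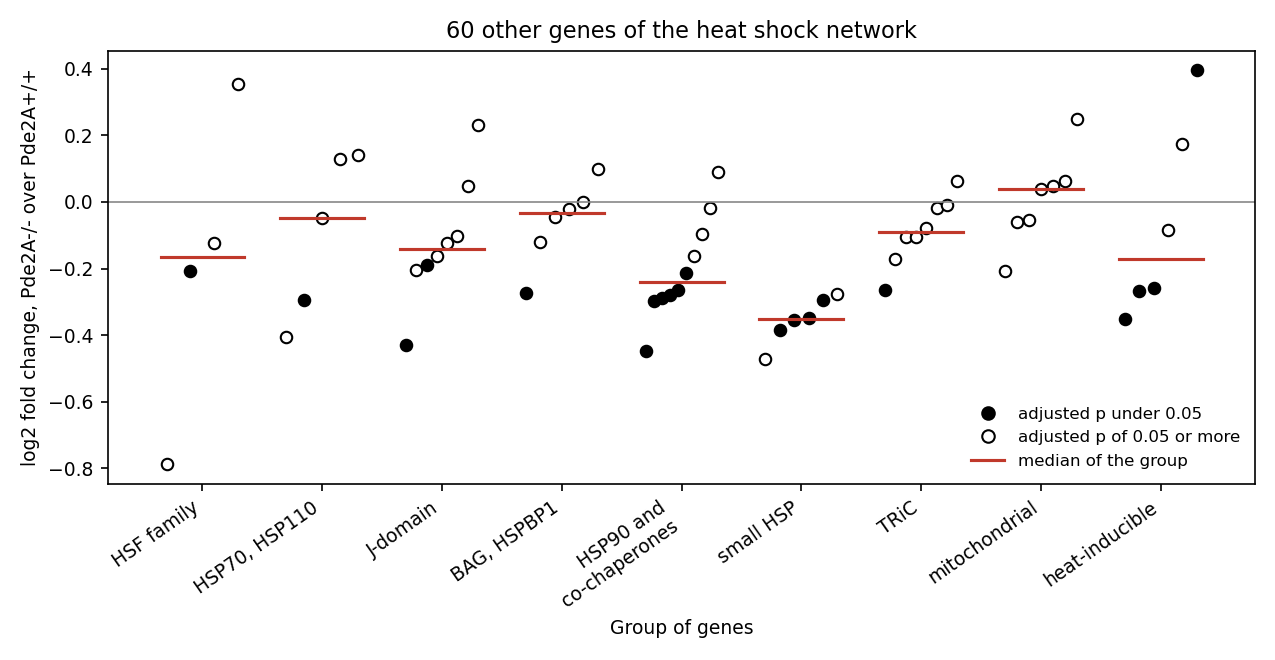
Fitted log2 fold change of *Pde2A*-/- over *Pde2A*+/+ hearts for each of 60 further genes of the heat shock network, by list; filled points have an adjusted p under 0.05, and a red line is the median of a list. Of the 20 filled points, 19 lie below 0 and 1, *Sqstm1*, lies above it, and all 6 small heat shock proteins lie below 0.

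Other genes of cell stress and other cell types moved with the genotype in these hearts, and their part in the result was not tested. The counts below stand beside 8.93% of all genes tested called higher and 5.67% lower. Among genes that averaged 1 CPM or more the shares were 13.7% and 9.03%. For single genes, 5.38% of those tested had every *Pde2A*-/- heart above every *Pde2A*+/+ heart. The 10 genes of a list that low oxygen induces had summed levels of 1068 CPM in *Pde2A*-/- A, 1419 in B, 2208 in 14, 2485 in D and 3114 in 15, against 932 to 1080 CPM in *Pde2A*+/+ hearts, and 9 of the 10 were higher. The 11 immediate early genes of another list summed to 275, 303, 328, 478 and 407 CPM in the same order, against 267 to 316 CPM, and 6 of the 11 were higher. Heart D was thus highest for the immediate early genes and for *Hspa1a*, and heart 15 for the hypoxia genes. Handling of tissue can induce immediate early genes. The study also reported a higher level of cAMP, which PDE2A breaks down, in *Pde2A*-/- hearts. The part of either was not tested. Summed macrophage markers ran from 180 to 235 CPM in *Pde2A*-/- and from 88.9 to 140 CPM in *Pde2A*+/+ hearts, without overlap, and 7 of 7 were higher. Cardiomyocyte markers overlapped between the genotypes (36058 to 43866 and 35357 to 47061 CPM), with 1 of 11 higher and 1 lower. Summed endothelial markers ran from 1012 to 1100 CPM in *Pde2A*-/- and from 847 to 1009 CPM in *Pde2A*+/+ hearts, without overlap, with 2 of 6 higher and 1 lower. Of 8 erythroid markers 4 were higher, with a median log2 fold change of 1.31, while their sum overlapped (4858 to 7489 and 3395 to 11608 CPM). Genes of the mitochondrial genome took 3.21% of the counts in *Pde2A*-/- A, 2.91% in B, 2.3% in 14, 1.94% in D and 2.07% in 15, against 3.11% to 3.60% in *Pde2A*+/+ hearts. All *Pde2A*-/- hearts but A lay below every *Pde2A*+/+ heart, and 14, D and 15 were the lowest, the hearts that also had the lowest *Hspa8* and *Hsph1* and the highest *Hspa1a*.

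**Figure D5:**
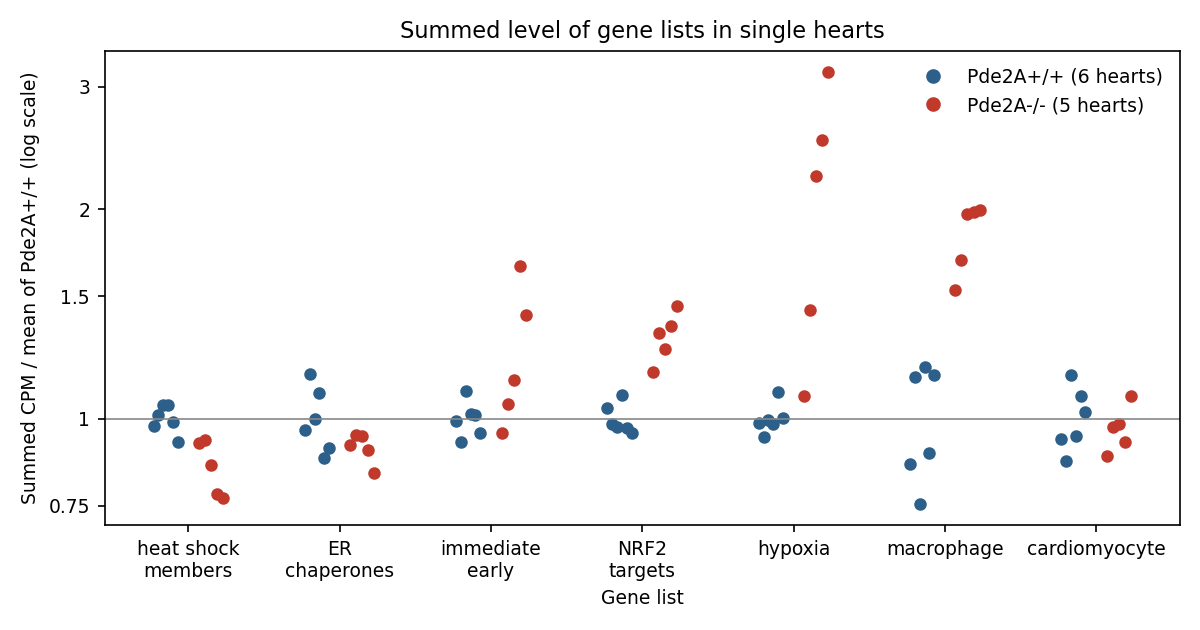
Summed CPM of gene lists in each heart, divided by the mean of the 6 *Pde2A*+/+ hearts (log axis); each point is a heart. The sum of the 10 heat shock members lies below the *Pde2A*+/+ range in 4 of 5 *Pde2A*-/- hearts, the NRF2 and macrophage lists lie above it in all 5, the hypoxia list in 4 and the immediate early list in 3.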

How the data were processed

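RNA of 5 *Pde2A*-/- and 6 *Pde2A*+/+ hearts was sequenced on a NextSeq 500 from stranded single-end mRNA libraries. Per the labels and the study's methods the authors mapped reads with STAR to GRCm38 (mm10) and deposited raw counts per gene, in which reads at several places or on several genes are dropped. The sense counts were used. Gene names and positions came from GENCODE M21 (55141 of 55487 identifiers matched). Genes with at least 10 counts over all hearts were normalized by TMM and tested by edgeR 4.0.16 quasi-likelihood in R 4.3.3, with Benjamini-Hochberg adjustment over all genes; CPM are TMM-scaled. DESeq2 1.42.0 was an alternative, and the fits were tested on simulated data. Depth per heart was high, so for most members the spread between hearts (biological coefficient of variation 16.8% over all genes) set the precision. *Hspa1a* and *Hspa1b* had few reads, 41 to 87 and 63 to 93 per *Pde2A*+/+ heart, and counting error adds to the spread there. Nothing states litter, and separate embryos are the replicates. Shared sequence was counted in 75-base windows of annotated transcripts.

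Members, lists and tests were chosen with earlier results of these data known. The text names the 10 members, 13 partners whatever their values (*Hsp90ab1*, *Hspa4*, *Hspa4l*, *Hspa1l*, *Hsf2*, *Bag3*, *Dnaja1*, *Cryab*, *Hspb7*, *Hspa9*, *Serpinh1*, *Chordc1*, *Stip1*), and in each list up to 2 further called genes with the largest change and a mean of at least 1 CPM. *Ahsa1*, *Ptges3*, *Ier5*, *Hspb3* and *Hspb6* were named after their values were seen. The comparison without the hearts holding at least 30 CPM of liver or thymus markers, and the sum of *Hspa1a* and *Hspa1b*, were added after the data had been seen.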

Additional observations from a re-analysis of the deposited data

Results flagged for a closer look

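Among 92 groups of hearts examined, for the members, the named genes and summed marker lists, 5 held a heart whose gap to its nearest neighbour took up most of the range, and chance alone flags about 1 in 20. *Hspb1* in *Pde2A*-/- B was 117 CPM, against 102 to 107 CPM in the other *Pde2A*-/- hearts. *Hspa1l* in *Pde2A*+/+ 6 was 6.60 CPM, against 4.0 to 4.9 CPM in the other *Pde2A*+/+ hearts. Summed liver markers were 42.1 CPM in *Pde2A*-/- D, against 3.85 to 6.31 CPM in the other *Pde2A*-/- hearts. They were 111 CPM in *Pde2A*+/+ E, against 2.63 to 42.7 CPM in the other *Pde2A*+/+ hearts. Summed thymus markers were 58.7 CPM in *Pde2A*+/+ 7, against 0.0746 to 0.217 CPM in the others. Heart D, which had the highest *Hspa1a* and *Hspa1b*, is among the hearts with liver RNA, and the part of that RNA in the result was not tested.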

How the results depend on the processing

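All values are from edgeR unless DESeq2 is named. The cause of each change was not tested, except that the added fold change rule can only lower a count. Leaving out hearts changes both their number and which hearts remain, which cannot be told apart, and counts then moved in both directions. DESeq2 and filterByExpr each called 6 members lower instead of 3, by adding *Hspe1* (−0.18 and −0.19), *Hspd1* (−0.18 and −0.18) and *Hsf1* (−0.16 and −0.17), and *Xist* as a covariate called 5, adding *Hspd1* (−0.20) and *Hsf1* (−0.18). Without scaling beyond the library total *Hspd1* passed (−0.19), and with the naming style as a covariate *Hsph1* did not (−0.34). Network genes called higher were 5 with DESeq2, 3 with filterByExpr, 3 with the naming style, 2 without scaling and 2 with *Xist*, and genes called lower over all genes were 2354 with DESeq2 against 1372. Requiring a fold change of at least 2 left 2 members higher and 0 lower, 0 network genes either way, and 535 and 90 genes over all. Without the 5 hearts with liver or thymus RNA, 0 members were higher (2 at an unadjusted p under 0.05) and 1 lower (5 unadjusted), 0 network genes higher (1 unadjusted) and 1 lower (21 unadjusted), and 353 and 29 genes over all; *Hspa1a* was at 1.44, *Hspa1b* at 1.03, *Hspa8* at −0.31 and *Hsph1* at −0.39. Leaving out each heart in turn gave 1 to 2 members higher and 1 to 4 lower, 0 to 4 network genes higher (at the count of 0, 4 to 7 unadjusted) and 7 to 24 lower, and 1288 to 2887 and 414 to 2165 genes over all. The fold changes ran from 1.15 to 1.89 for *Hspa1a*, 0.92 to 1.63 for *Hspa1b*, −0.40 to −0.27 for *Hspa8* and for *Hsph1*, −0.32 to −0.24 for *Hspb1*, −0.22 to −0.13 for *Hspe1*, −0.21 to −0.15 for *Hspd1*, −0.18 to −0.12 for *Hsf1*, −0.11 to −0.06 for *Hsp90aa1* and −0.08 to 0.00 for *Dnajb1*. *Hspa1a* and *Hspb1* were called in all of the latter fits. No paired analysis was possible because the genotypes share no replicate names. Outside the fits that left out 1 heart, the fold changes of the members kept direction and side of the threshold in 87 of 101 comparisons, and 9 gained and 5 lost their call. Of 66 counts, 46 stayed within 1.5 times the reported count, 9 rose and 11 fell beyond that, and counts within it could still change.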

Other observations

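The heat shock genes can be set beside stress programmes of other compartments. Of 14 chaperone genes of the endoplasmic reticulum, *Dnajc3*, *Creld2* and *Manf* were lower (7 genes at an unadjusted p under 0.05 and 5 in DESeq2). In the same list 0 were higher (0 at an unadjusted p under 0.05 and 0 in DESeq2). The median log2 fold change was −0.21, and 12 of the 14 estimates lay below 0. Of 8 targets of NRF2, the regulator of the antioxidant response, 5 were higher (6 at an unadjusted p under 0.05 and 6 in DESeq2). In this list 0 were lower (0 at an unadjusted p under 0.05 and 0 in DESeq2), and the median was 0.55. The sum of the 8 was 339 to 422 CPM in *Pde2A*-/- hearts, in all 5 above the 278 to 314 CPM of *Pde2A*+/+ hearts. These counts stand beside 8.93% of all genes higher and 5.67% lower in edgeR.

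Reads on the strand opposite to *Hspa1a* numbered between 0 and 5 per heart and those opposite to *Hspa1b* between 0 and 4, so that the rise was on the coding strand. Among the 60 network genes, *Dnajb6* held the 3-unit heat shock motif in its upstream window besides the 2-unit one, and 8 of the 52 genes in the RefSeq table held a 2-unit motif, against 13% of all promoters. *Dnajb6* was at a log2 fold change of 0.05 (adjusted p = 0.608, edgeR).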
